A study of Mus musculus with 9 samples.

Results

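The tubulin tyrosine ligase-like (TTLL) enzymes described here are 10 genes, namely the 7 glutamylases Ttll1, Ttll4, Ttll5, Ttll6, Ttll7, Ttll9 and Ttll13 and the 3 glycylases Ttll3, Ttll8 and Ttll10. They were chosen by symbol from the 23074 genes of the count table, by a rule that uses no measured value though it was written with earlier results of these data known, and all 10 passed the filter on low counts that left 15613 genes for testing. The RNA came from whole testes without their capsule, taken at postnatal day 29 or 30 (P30) from 5 wild type (Rfx2+/+, WT) and 4 Rfx2-/- mice and sequenced separately for each animal. The transcription factor RFX2 is made in male germ cells and binds a DNA motif called the X-box, and the comparison asked which mRNAs depend on it. In the Rfx2-/- mice exon 7, which encodes much of the DNA binding domain, had been removed in all cells by a Cre transgene under the beta-actin promoter. All 9 mice came from the same mixed background (C57BL/6|129/Sv|FVB/N), and the methods state that the knockout line kept on a mixed background retained the neomycin selection cassette. According to the methods, age-matched littermates were used where possible.

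Microtubules carry chemical marks on the tails of their tubulins, and the marks are densest on stable microtubules such as those of the axoneme, the core of cilia and of the sperm flagellum. TTLL glutamylases add chains of glutamate to these tails and TTLL glycylases add chains of glycine at overlapping positions. Some members attach the first residue of a side chain (initiation) and others lengthen the chain (elongation). The testis is known as a tissue rich in both marks, because spermatids build a long flagellum.

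The targeted gene was checked first. Rfx2 had 549 ± 54.5 CPM (counts relative to the scaled library total; mean ± SD) in WT (n = 5) and 146 ± 59.8 CPM in Rfx2-/- (n = 4), a log2 fold change of -1.91 with a standard error (SE) of 0.28 and an adjusted p of 7.81e-04 (edgeR). The reads were counted over all exons of Rfx2, so transcripts that lacked exon 7 were still counted. Rfx2-/- replicate 1 held 28800855 counts in total, and the other 8 libraries between 13574764 and 15193330. Of the libraries, Rfx2-/- replicate 2 and WT replicate 3 stood apart from the others of their genotype, as described with the members.

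The 10 genes lie on 9 chromosomes (GRCm38, GENCODE M21). Of the glycylases, Ttll3 lies at chr6:113389260-113414587 on the plus strand, Ttll8 at chr15:88890633-88954418 on the minus strand and Ttll10 at chr4:156034840-156059414 on the minus strand. Of the glutamylases, Ttll1 lies at chr15:83483769-83510893 on the minus strand and the others are all on the plus strand, with Ttll4 at chr1:74661745-74703730, Ttll5 at chr12:85824659-86061893, Ttll6 at chr11:96133786-96165451, Ttll7 at chr3:146852367-146984009, Ttll9 at chr2:152962485-153008482 and Ttll13 at chr7:80246376-80260821. Exons of Ttll3 overlap those of Arpc4 on the same strand, exons of Ttll8 overlap those of AC117700.1 on the same strand, and exons of Ttll9 overlap those of Gm14199 on the opposite strand. Reads that fell in exons of more than one gene had been left out by the authors, and whether strand was used is not stated, so that reads of Ttll9 and Gm14199 may not have been separated where these overlap. Arpc4, a subunit of an actin nucleating complex, had 33.3 ± 2.94 CPM in WT and 35.9 ± 5.89 CPM in Rfx2-/-, with a log2 fold change of 0.11 (SE 0.14, adjusted p = 0.659 by edgeR).

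Promoters were read because RFX2 binds DNA and the members did not all respond alike. RefSeq promoter windows (GRCm38.p6, 250 bases before to 50 bases after the annotated start) were at hand for 9 of the 10 genes, as 10 windows of which Ttll3 had 2. Ttll1 had no window and was not searched. They were searched for the palindromic X-box GTTGCCNNGGCAAC, which reads the same on both strands, with up to 2 mismatches among its 12 fixed bases. A window with such a match was found for 3 members, Ttll9, Ttll3 and Ttll10, and not for Ttll4, Ttll5, Ttll6, Ttll7, Ttll8 or Ttll13. Of all 32851 windows in the table, 2.85% held a match with up to 2 mismatches and 0.682% one with up to 1. The stretches from 150 bases before to 20 bases after the start follow, 5′ to 3′, for the 3 members with a match and for Ttll6, a gene without one whose level fell strongly; capitals mark the match.
Ttll9 (chr2:152962335-152962504, plus strand): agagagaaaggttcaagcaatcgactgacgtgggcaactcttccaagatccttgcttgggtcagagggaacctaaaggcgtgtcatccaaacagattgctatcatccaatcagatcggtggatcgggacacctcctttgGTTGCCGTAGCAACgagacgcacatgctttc
Ttll3, the more downstream of its 2 starts (chr6:113392313-113392482, plus strand): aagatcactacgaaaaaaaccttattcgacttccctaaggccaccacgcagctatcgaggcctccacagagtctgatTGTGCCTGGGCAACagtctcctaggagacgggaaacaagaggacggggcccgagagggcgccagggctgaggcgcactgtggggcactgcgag
Ttll10 (chr4:156050798-156050967, minus strand): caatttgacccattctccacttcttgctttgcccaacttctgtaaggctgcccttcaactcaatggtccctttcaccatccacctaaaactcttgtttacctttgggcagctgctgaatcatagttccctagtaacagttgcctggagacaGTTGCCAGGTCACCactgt
Ttll6 (chr11:96133636-96133805, plus strand): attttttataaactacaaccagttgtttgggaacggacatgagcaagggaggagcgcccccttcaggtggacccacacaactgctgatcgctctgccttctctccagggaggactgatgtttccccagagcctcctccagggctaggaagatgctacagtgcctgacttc

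The match of Ttll9 had 1 mismatch and began 11 bases before the annotated start. The match of Ttll3 had 2 mismatches and began 73 bases before the downstream start, which lies inside the gene, whereas the window of the upstream start held none. The match of Ttll10 also had 2 mismatches and lay just after its RefSeq start, which is inside the longer GENCODE gene. The study also lists genes with an RFX2 peak in their promoter, from chromatin immunoprecipitation of dissociated germ cells of younger WT mice. That list names 977 genes, and among them 3 of the 10 members, Ttll1, Ttll3 and Ttll9. Ttll3 and Ttll9 thus had both a listed peak and a motif match, and Ttll10 a match alone. Ttll1 had a listed peak, with no window to search for a motif. Ttll6 had neither a listed peak nor a match.

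All 10 TTLL genes had a lower mean level in Rfx2-/- than in WT testes, and 4 of them passed the test. Calls required a change of over 2-fold together with an adjusted p in edgeR of 0.01 or less. The called genes were the glycylases Ttll3 and Ttll10 and the glutamylases Ttll6 and Ttll1, all lower. In the same comparison 3.68% of the 15613 genes tested were called lower and 0.826% higher. No member was called higher, by edgeR or by DESeq2, and 0 had a higher level at an unadjusted p under 0.05. The share of all genes at that unadjusted limit was not computed, here or for the lists below. Counts at that limit therefore only describe each list. The fitted log2 fold change was below 0 for 10 of 10 members and for 46.9% of all genes, and its median was -0.67 over the members and 0.03 over all genes. At the looser limit of an adjusted p of 0.05 with no fold limit, 6 members were lower, against 7.31% of all genes. In 8 of the 10 genes every Rfx2-/- library lay below every WT library, as it did for 9.7% of all genes, and in 0 every Rfx2-/- library lay above, as it did for 6.16% of all genes. These are levels in whole testis, where fewer cells of a type and less RNA per cell cannot be told apart.

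**Figure D1:**
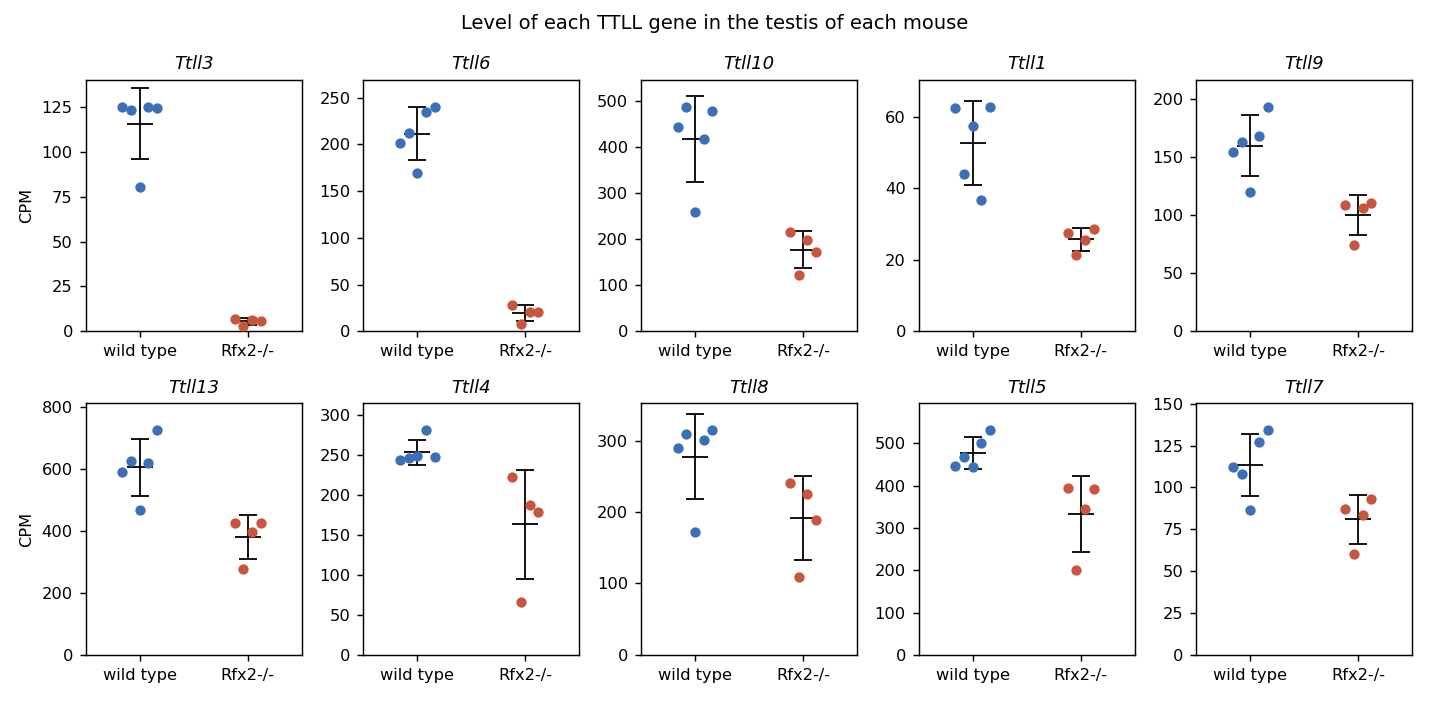
Level of each TTLL gene in CPM (vertical axis, from 0) in each of 5 WT (blue) and 4 Rfx2-/- (red) testes, with 1 point per mouse and bars for mean ± SD. The Rfx2-/- points of Ttll3 and Ttll6 lie near 0, and the genotypes overlap for Ttll8 and Ttll7 alone.

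Among the glycylases, Ttll3 and Ttll8 are known as initiating enzymes, which place the first glycine, and Ttll10 as the elongating enzyme. The Ttll3 level was 125, 124, 80.5, 125 and 124 CPM in WT replicates 1 to 5 and 7.01, 3.01, 6.07 and 5.63 CPM in Rfx2-/- replicates 1 to 4. The WT values were alike but for replicate 3, and the highest Rfx2-/- value was far under the lowest of WT. The mean fell from 115.8 ± 19.8 CPM to 5.43 ± 1.71 CPM, or 4.69% of WT, with a log2 fold change of -4.40 (SE 0.26, 95% interval -4.96 to -3.84, adjusted p = 2.63e-07 by edgeR). Between 45 and 211 reads still mapped to Ttll3 in each Rfx2-/- library, so its reads were not lost entirely. Which exons or transcripts gave these reads was not examined.

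Ttll8, the other initiating glycylase, had 289.5, 309, 173, 301 and 314 CPM in WT and 240.5, 110, 226 and 189 CPM in Rfx2-/-. The genotypes overlapped, because WT replicate 3 lay below 3 of the Rfx2-/- libraries. Its mean was 277 ± 59.2 CPM in WT and 191 ± 58.5 CPM in Rfx2-/-, and the log2 fold change of -0.54 (SE 0.24, 95% interval -1.06 to -0.01) did not pass the test (adjusted p = 0.176 by edgeR). The 95% intervals of the initiating glycylases Ttll8 and Ttll3 did not overlap.

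Ttll10, which lengthens glycine chains, had 444, 487.5, 258, 417 and 479 CPM in WT and 216, 122, 197 and 172 CPM in Rfx2-/-. All Rfx2-/- values were below those of WT, the nearest being WT replicate 3 and Rfx2-/- replicate 1. The level fell from 417 ± 93.3 CPM to 177 ± 40.6 CPM, which is 42.4% of WT (log2 fold change -1.24, SE 0.22, adjusted p = 0.00296 by edgeR). The call was lost when any of WT replicates 1, 2 or 5 or Rfx2-/- replicate 4 was left out, with adjusted p of 0.0102 to 0.0158 and a log2 fold change of -1.22 to -1.18.

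Of the glutamylases, Ttll6 and Ttll13 are known as elongating enzymes. Ttll6 had 202, 212, 169, 234 and 240.5 CPM in WT and 28.5, 7.36, 20.9 and 20.9 CPM in Rfx2-/-. The Rfx2-/- values lay well under all those of WT, and replicate 2 was lower still than the other 3. The mean fell from 212 ± 28.5 CPM to 19.4 ± 8.79 CPM, or 9.17% of WT (log2 fold change -3.44, SE 0.33, 95% interval -4.15 to -2.73, adjusted p = 1.81e-05 by edgeR). Without Rfx2-/- replicate 2 the log2 fold change of Ttll6 was -3.17, and that of Ttll3 was -4.20. The intervals of Ttll3 and Ttll6 overlapped each other and neither overlapped that of any other member.

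Ttll13 had 588.5, 626, 467, 618 and 724 CPM in WT and 424, 277, 395 and 426 CPM in Rfx2-/-. All Rfx2-/- libraries were below those of WT, by a smaller margin than for Ttll6. The mean of Ttll13 was 605 ± 92.3 CPM in WT and 381 ± 70.4 CPM in Rfx2-/-, a log2 fold change of -0.67 (SE 0.18, 95% interval -1.05 to -0.28). With an adjusted p of 0.0309 (edgeR) it passed the looser limit and not the main one, and the alternative fits gave values of 0.00244 to 0.0823. The intervals of the 2 elongating glutamylases did not overlap.

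Ttll1, the catalytic subunit of the tubulin polyglutamylase complex, had 62.5, 44.1, 57.5, 36.7 and 62.9 CPM in WT and 27.4, 21.3, 25.5 and 28.6 CPM in Rfx2-/-. The WT libraries were spread widely while the Rfx2-/- libraries lay close together beneath them. The level fell from 52.7 ± 11.8 CPM to 25.7 ± 3.19 CPM, or 48.8% of WT (log2 fold change -1.03, SE 0.18, adjusted p = 0.00282 by edgeR). The change sat at the limit of 2-fold, and the call was lost in 7 of 14 alternative fits. These were the fit on total counts (log2 fold change -0.91) and those without WT replicates 1, 3 or 5 or without Rfx2-/- replicates 2, 3 or 4, with a log2 fold change of -1.06 to -0.95 and an adjusted p of 0.00166 to 0.0143.

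**Figure D2:**
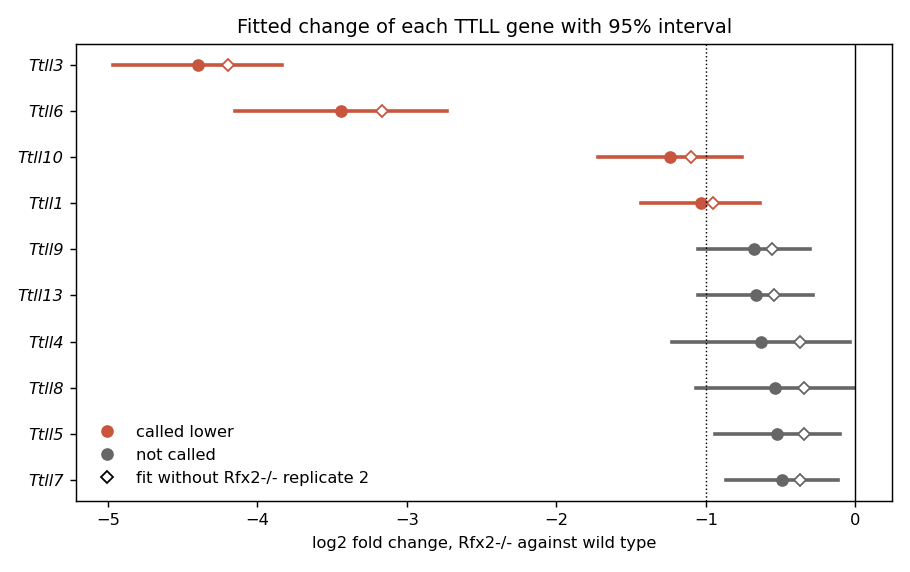
Fitted log2 fold change of each TTLL gene, Rfx2-/- against WT (horizontal axis), with its 95% interval; red marks genes called lower, grey genes not called, and open diamonds the fit without Rfx2-/- replicate 2. The dotted line marks a 2-fold decrease. All 10 estimates lie below 0 in both fits, and the intervals of Ttll3 and Ttll6 end below the values where those of the other 8 genes begin.

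The means of the other 4 glutamylases in Rfx2-/- were 62.6% to 71.3% of those in WT, and none of these genes was called. Ttll9, which is needed for normal beating of the sperm flagellum, had 155, 163, 120.4, 168 and 193.5 CPM in WT and 109, 74.7, 106.0 and 111 CPM in Rfx2-/-. The genotypes did not overlap and Rfx2-/- replicate 2 lay apart. Its mean in Rfx2-/- was 62.6% of the WT mean of 159.9 ± 26.4 CPM (log2 fold change -0.68, SE 0.17, adjusted p = 0.0253 by edgeR), which passed the looser limit alone, and the alternative fits gave an adjusted p between 0.00212 and 0.0711.

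Ttll4, Ttll5 and Ttll7 are known mainly for initiating or short-chain glutamylation. Ttll4 had 244, 246, 248.7, 281 and 247.5 CPM in WT and 223, 65.7, 187.5 and 178.5 CPM in Rfx2-/-. The low value of Rfx2-/- replicate 2 set much of the difference. The log2 fold change of Ttll4 was -0.63 (SE 0.27, adjusted p = 0.159) with all libraries and -0.37 (adjusted p = 0.0414) without that one, both by edgeR.

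Ttll5 had 446, 466, 443, 501 and 530 CPM in WT and 393, 201.5, 344 and 392 CPM in Rfx2-/-, without overlap. Its log2 fold change was -0.52 (SE 0.19, adjusted p = 0.106) and -0.34 without Rfx2-/- replicate 2. Ttll7, which acts on beta-tubulin, had 112, 108, 86.4, 127 and 134 CPM in WT and 87.0, 60.2, 83.4 and 93.2 CPM in Rfx2-/-. Here WT replicate 3 lay within the Rfx2-/- range, and the log2 fold change was -0.49 (SE 0.17, adjusted p = 0.0925), or -0.37 without Rfx2-/- replicate 2. None of Ttll4, Ttll5 and Ttll7 passed the test, and their 95% intervals ran from -1.23 to -0.04, from -0.94 to -0.10 and from -0.86 to -0.11.

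**Figure D3:**
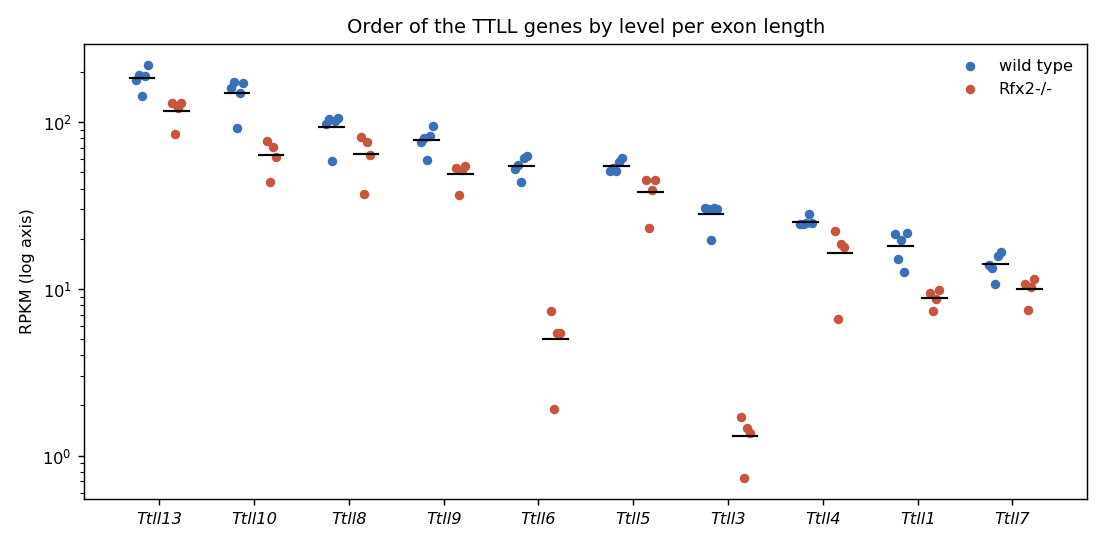
Level of each TTLL gene per kilobase of exons (RPKM, log axis) in each WT (blue) and Rfx2-/- (red) library, ordered by the WT mean, with horizontal bars for the means. Ttll6 and Ttll3 moved from the 5th and 7th place in WT to the 9th and 10th in Rfx2-/-.

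Levels were then compared between genes per exon length, as RPKM (CPM per kilobase of merged coding-transcript exons). In WT testis Ttll13 had the highest level at 185.1 ± 28.3 RPKM, followed by Ttll10 at 149.8 ± 33.5, Ttll8 at 93.4 ± 19.96, Ttll9 at 78.3 ± 12.9, Ttll6 at 54.9 ± 7.38 and Ttll5 at 54.8 ± 4.31 RPKM. Ttll3 (28.1 ± 4.80), Ttll4 (25.3 ± 1.54), Ttll1 (18.1 ± 4.04) and Ttll7 (14.02 ± 2.29 RPKM) were at the lower end. The ranges of neighbours over the mice overlapped, except that every mouse value of Ttll5 was above every one of Ttll3, and likewise for Ttll4 and Ttll1. Within each WT mouse, however, Ttll13 was above Ttll10, Ttll10 above Ttll8 and Ttll9 above Ttll6. The order depended in part on the length used. With the longest coding transcript of each gene, Ttll5 had 93.97 RPKM and took the 3rd place, Ttll1 had 25.6 RPKM and passed Ttll4, and Ttll3 had 36.6 RPKM.

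In Rfx2-/- testis Ttll13 was again the highest, at 116.5 ± 21.6 RPKM, and every mouse value was above those of Ttll8 (64.4 ± 19.7 RPKM), the next in order. Ttll10 (63.5 ± 14.6 RPKM), Ttll9 (48.99 ± 8.33 RPKM) and Ttll5 (38.2 ± 10.4 RPKM) followed, with ranges over the mice that overlapped between neighbours. Within each Rfx2-/- mouse, however, Ttll10 was above Ttll9 and Ttll9 above Ttll5. Ttll4 (16.3 ± 6.80), Ttll7 (9.99 ± 1.78), Ttll1 (8.83 ± 1.10) and Ttll6 (5.03 ± 2.28 RPKM) formed a lower group. Ttll3, at 1.32 ± 0.42 RPKM, lay below all of them with no overlap.

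Summed over members, the glutamylases had 430.5 ± 54.2 RPKM in WT and 243.9 ± 51.7 RPKM in Rfx2-/-, and the glycylases 271 ± 57.7 and 129 ± 34.7 RPKM. The glycylase share of the total was 38.3% ± 3.51 (SD, n = 5) in WT and 34.4% ± 2.63 (SD, n = 4) in Rfx2-/-, with overlap between the genotypes. Within the glycylases the composition differed more. Ttll3 held 9.71% to 11.5% of the glycylase sum in WT mice and 0.896% to 1.08% in Rfx2-/- mice. Ttll8 held 34.4% on average in WT and 49.3% in Rfx2-/-, and Ttll10 55.1% and 49.7%. Of the glutamylase sum, Ttll6 held 12.4% to 13.6% in WT and 1.14% to 2.66% in Rfx2-/-, while Ttll13 held 42.9% and 48.1% on average. The shares of Ttll3, Ttll6, Ttll8 and Ttll13 did not overlap between the genotypes, while that of Ttll10 did. For Ttll8 they were 33.65% to 36.04% in WT and 45.24% to 51.27% in Rfx2-/-. For Ttll13 they were 40.61% to 44.26% and 46.69% to 50.57%. Those of Ttll3 and Ttll6 were both lowest in Rfx2-/- replicate 2.

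The genes whose levels followed Ttll3 and Ttll6 most closely were found by Pearson correlation over the 9 libraries of both genotypes, on log2(CPM + 0.5). These libraries share the difference between genotypes, so the values are a description. For Ttll3 the closest were Ppp6r2 (r = 0.997), Nr1h3 (r = 0.997) and Adgrf3 (r = 0.997). Ppp6r2, a regulatory subunit of protein phosphatase 6, had a log2 fold change of -1.92, Nr1h3, a sterol-sensing nuclear receptor, one of -2.01 and Adgrf3, an adhesion receptor, one of -6.26. For Ttll6 they were Ccdc65 (r = 0.999), Armc2 (r = 0.999) and Ttc16 (r = 0.998), with log2 fold changes of -2.99, -2.68 and -1.84. Ccdc65, part of the nexin-dynein regulatory complex of the axoneme, went from 291 CPM in WT to 36.4 CPM in Rfx2-/-, and Armc2, which is needed to assemble the sperm axoneme, from 75.9 to 11.8 CPM.

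Other genes of tubulin modification were examined as 6 lists with 37 genes, of which 34 were tested. In all, 1 was called lower and 0 higher by both edgeR and DESeq2, against 3.68% and 0.826% of all genes in edgeR. Over all genes DESeq2 called 731 lower and 211 higher of 20605. At an unadjusted p under 0.05, 9 were lower and 3 higher, and the median log2 fold change was -0.19, or -0.08 without Rfx2-/- replicate 2. The called gene was Ttll2, a TTLL gene outside the 10 members, which went from 5.56 ± 1.68 CPM in WT to 1.60 ± 0.31 CPM in Rfx2-/- (log2 fold change -1.80, SE 0.27, adjusted p = 9.57e-04 by edgeR). Of the 50-base stretches of its exons 74.6% also occur in other genes, and it overlaps Gm49630 on the same strand, so its value is uncertain. Of the rest of the family, Ttll11, an elongating glutamylase, had 66.7 ± 8.65 CPM in WT and 48.8 ± 8.60 CPM in Rfx2-/- (log2 fold change -0.45, adjusted p = 0.0954). Ttll12 had 22.5 and 21.2 CPM (-0.09, adjusted p = 0.783), and Ttl, the ligase that restores the terminal tyrosine of alpha-tubulin, 2.48 and 3.23 CPM (0.37, adjusted p = 0.343).

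The list of 5 glutamylase partners, which holds the TTLL1 complex subunits Tpgs1, Tpgs2, Lrrc49 and Nicn1 and the TTLL5 partner Ccsap, had no called gene. Its median log2 fold change was -0.19, or -0.35 without Rfx2-/- replicate 2. At an unadjusted p under 0.05, 1 was lower and 1 higher, and DESeq2 called 0. The partner with the highest level per length, Tpgs2, had 211.5 ± 25.4 CPM in WT and 149.5 to 190.3 CPM in Rfx2-/- (log2 fold change -0.33, 95% interval -0.64 to -0.02, adjusted p = 0.158 by edgeR). The difference between Tpgs2 and Ttll1 was not tested.

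The 6 deglutamylases, carboxypeptidases that remove the glutamates, also held no called gene, by edgeR or DESeq2, and at an unadjusted p under 0.05 there were 3 lower and 1 higher. Their median log2 fold change was -0.36, or -0.17 without Rfx2-/- replicate 2. Agbl5, which removes the branch-point glutamate, had the highest level per length and went from 938 ± 76.2 CPM in WT to 660.2 ± 194 CPM in Rfx2-/- (log2 fold change -0.51, adjusted p = 0.135 by edgeR). Agbl4, named after its values were seen, was the gene of these lists that rose at the looser limit together with Tubb2a, from 73.5 ± 9.28 to 111.5 ± 17.0 CPM (log2 fold change 0.60, adjusted p = 0.0199).

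The 6 enzymes of detyrosination and acetylation had 0 calls by edgeR and DESeq2 and 0 at an unadjusted p under 0.05, with a median log2 fold change of -0.21, or -0.06 without Rfx2-/- replicate 2. The highest level per length was that of Sirt2, a deacetylase, with 299.6 ± 53.7 CPM in WT and 238 ± 70.2 CPM in Rfx2-/- (log2 fold change -0.33, adjusted p = 0.333 by edgeR).

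The substrates were measured as well. None of the 8 alpha-tubulin genes was called by either tool, with 3 lower at an unadjusted p under 0.05 and a median log2 fold change of -0.38. Tuba3a, a testis alpha-tubulin and the highest of them per length, had 1048 ± 143 CPM in WT and 810 ± 157.5 CPM in Rfx2-/- (log2 fold change -0.37, adjusted p = 0.189 by edgeR), and 35.3% of the 50-base stretches of its exons recur in other genes. Of the 8 beta-tubulin genes 5 were tested and 0 called by either tool, with 1 higher at an unadjusted p under 0.05 and a median log2 fold change of 0.08. Tubb4b, the main axonemal beta-tubulin, had 571 ± 55.4 CPM in WT and 618 ± 99.9 CPM in Rfx2-/- (log2 fold change 0.11, 95% interval -0.21 to 0.44, adjusted p = 0.649). At the looser limit 3 genes of the 6 lists were lower, Ttll2, Tuba1c and Tuba4a, and 2 higher, Agbl4 and Tubb2a, against 7.31% and 3.48% of all genes.

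**Figure D4:**
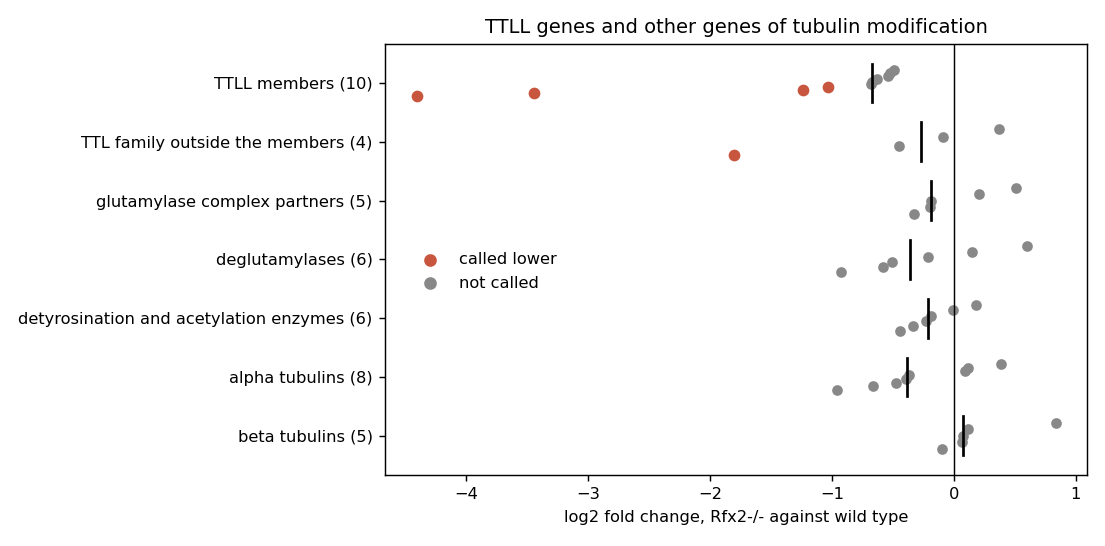
Log2 fold change, Rfx2-/- against WT (horizontal axis), of the 10 TTLL members and of the tested genes of 6 other lists of tubulin modification, with 1 point per gene, red for genes called lower and a vertical bar for the median of each list. The member median of -0.67 is the lowest of the 7, and Ttll2 is the single red point outside the members.

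Of the 37 genes in these lists, 7 were in the RFX2 promoter peak list, namely Tpgs1, Lrrc49, Nicn1, Agbl3, Agbl4, Sirt2 and Tubb4b, and edgeR called 0 of the 7, with Nicn1 and Agbl4 higher at an unadjusted p under 0.05. Among the members 2 of the 3 listed genes were called (Ttll3 and Ttll1), as were 2 of the 7 that were not listed (Ttll6 and Ttll10). Over all 15613 genes tested, edgeR called 3.68% lower and 0.826% higher. The share called among all 977 listed genes was not computed, so these counts describe the named genes only. Ttll9, with a listed peak and the match with the fewest mismatches among the members, stayed at 62.6% of WT and passed the looser limit alone. Ttll6 fell to 9.17% of WT without a listed promoter peak or a match in its window. The peak list holds promoter peaks alone, while the study found most RFX2 peaks outside promoters, and the motif search covered promoter windows alone. The peaks came from germ cells of younger WT mice, and binding at P30 was not measured. Whether RFX2 acts directly on Ttll6 or Ttll9 was not tested.

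Rfx2-/- replicate 2 had the lowest level of the 4 Rfx2-/- libraries for all 10 members. Its log2 deviation from the other 3 ranged from -1.59 (Ttll6) to -0.34 (Ttll1), with a median of -0.78. In that library genes with long exons were low in general, so each member was set beside the median of all genes of like exon length. That median was -0.79 for genes as long as Ttll4, whose own deviation was -1.57, and -0.68 for genes as long as Ttll7, whose deviation was -0.54. It was -0.17 for genes as long as Ttll6 and 0.29 for genes as long as Ttll9, against deviations of -1.59 and -0.54. The median difference from genes of like length was -0.72 over the members. The same library had the highest summed germ cell markers of the 4 Rfx2-/- libraries at every stage. It was also the highest for Sertoli, Leydig, macrophage and erythroid markers, and the lowest for peritubular markers. Sertoli markers summed to 630.8 CPM, against 458.8 to 611.8 CPM in the other 3, and peritubular markers to 125.1 CPM, against 163.4 to 260.0 CPM. The spermatogonial sum was 120.2 CPM, against 91.59 to 119.5 CPM. Exons of the germ cell markers from meiotic prophase on ran from 0.41 kb (Prm3) to 4.358 kb (Piwil1). The marker sums were not set beside genes of like length. The part of exon length in these sums was not tested. The sum was 1313 CPM for meiotic prophase, against 583.8 to 691.9 CPM in the other 3, and 8011 CPM for late spermatocytes, against 5690 to 7447 CPM. It was 1393 CPM for round spermatid markers, against 873.7 to 1201 CPM, and 10880 CPM for elongating spermatid markers, against 6773 to 7822 CPM. Without it, the members' median log2 fold change was -0.55 and all 10 remained below 0. With a trend in exon length removed from every library, the log2 fold change was -4.37 for Ttll3, -3.42 for Ttll6 and -0.51 for Ttll4.

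**Figure D5:**
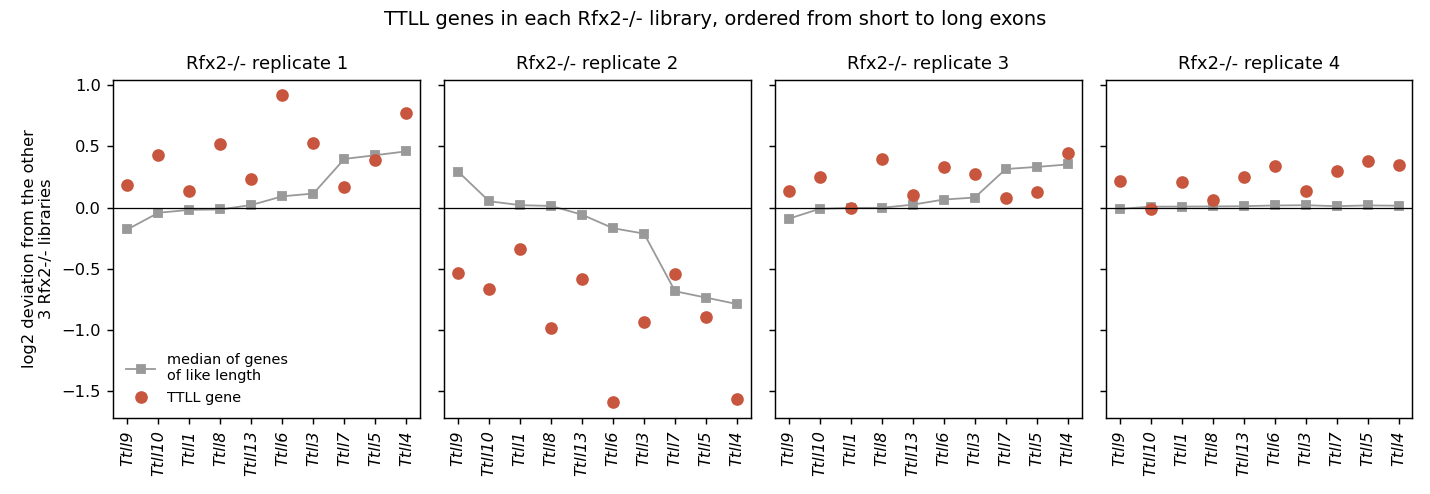
Log2 deviation of each TTLL gene (red) in each Rfx2-/- library from the mean of the other 3, with genes ordered from short to long exons, and the median of all genes of like exon length (grey squares). In replicate 2 all 10 points lie below 0, from -1.59 to -0.34, while the grey median falls from 0.29 to -0.79.

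WT replicate 3 was the lowest WT library for 8 of the 10 members, and its summed member level was 2103 CPM against 2669 to 3050 CPM in the other WT libraries. In the Rfx2-/- libraries the sum was 943 CPM in replicate 2 and 1592 to 1755 CPM in the others. WT replicate 3 also had the lowest level of 10 of 10 markers of elongating spermatids and 6 of 6 markers of round spermatids among WT libraries. Its sum over the elongating spermatid markers was 8515 CPM, against 13100 to 18110 CPM in the other WT libraries and 6773 to 10880 CPM in the Rfx2-/- libraries.

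The 10 elongating spermatid markers were all below 0 in log2 fold change, with a median of -0.76. By edgeR 0 were called, 8 were lower at an unadjusted p under 0.05 and 5 at the looser limit, and DESeq2 called 3 lower. Prm2, a protamine that packs sperm DNA, had 2721 ± 770.3 CPM in WT and 1273 ± 419 CPM in Rfx2-/- (log2 fold change -1.10, adjusted p = 0.021 by edgeR), and Tnp2, a transition protein, 2421 ± 702 and 1416 ± 501.5 CPM (-0.77, adjusted p = 0.0927). The study reports that Rfx2-/- spermatids arrest before elongation, so these mRNAs do not show that elongating spermatids were present in that genotype. The part of cell composition in the lower TTLL levels was not tested. The median was 0.14 for round spermatid markers such as Tssk2 and Tssk1, -0.12 for late spermatocyte markers such as Ldhc and Hspa2, 0.64 for meiotic prophase markers such as Sycp1 and Sycp3 (0.27 without Rfx2-/- replicate 2), and 0.00 for spermatogonial markers such as Kit and Dmrt1. It was 0.05 for Sertoli cells (Amhr2, Cldn11), 0.20 for Leydig cells (Cyp17a1, Cyp11a1), -0.04 for peritubular cells (Acta2, Myh11), 0.20 for macrophages (Csf1r, C1qa) and 0.17 for erythroid cells (Alas2, Hbb-bs). Without Rfx2-/- replicate 2 the late spermatocyte median was -0.05 and the medians of these 5 lists lay between 0.07 and 0.14. Germ cell and somatic marker mRNAs of the testis were thus detected in both genotypes, and edgeR called no gene of these 10 lists. Outside the elongating spermatid markers DESeq2 also called 0, and at an unadjusted p under 0.05 there were 1 lower and 10 higher.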

How the data were processed

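The authors extracted RNA from whole testes on silica columns and prepared TruSeq libraries. The deposited table holds raw counts per gene, in whole numbers and without normalisation. The submitters' processing notes name CASAVA 1.8.2, STAR 2.4, featureCounts 1.4.6 and GRCm38; the methods give reads counted over merged exons of protein-coding isoforms, with multi-mapping reads and reads in exons of several genes left out. Paralogues with shared sequence therefore lose reads. The use of strand is not stated, and the methods name different read lengths and aligners in different places.

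Genotype came from the labels of each mouse. The members and gene lists were chosen with earlier results of these data known. IDs were matched to GENCODE M21 (96.6%), which also gave exon lengths. The quasi-likelihood test of edgeR 4.0.16 (R 4.3.3; TMM scaling, filterByExpr, robust) was fitted on all 9 libraries with genotype as the factor, and p-values were adjusted over 15613 genes by Benjamini-Hochberg. SEs and 95% intervals come from this fit. The log2 fold changes of all genes had a median of 0.03, and of 0.16 with total counts as the scale. Named outside the members were Rfx2, every Ttl family gene, each called list gene and the gene highest in RPKM per list, 2 markers per list, and 3 genes nearest to the 2 members with the smallest p. On simulated counts of 15404 genes, 99% of 100 genes changed 4-fold and 100% of 100 changed 8-fold were recovered, with 2 false calls among 15204. The changed genes were drawn from those above a lower limit on their level. Changes under 4-fold and a trend in exon length were not simulated, so recovery under those conditions is not known. Membership in the promoter peak list came from the study's supplementary table. Alternatives included DESeq2 1.42.0, other scalings and filters, a length correction and leaving out each library.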

Additional observations from a re-analysis of the deposited data

Results flagged for a closer look

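A single library far from the others of its genotype was looked for in 20 groups of values, 10 members in 2 genotypes, by Dixon's criterion at 95%, under which about 1 in 20 groups is picked out by chance, or 1 here. It picked out 4. Ttll3 had 80.5 CPM in WT replicate 3, while the other 4 WT values were 123.5 to 125.4 CPM. Ttll8 had 173 CPM in the same library, against 289.5 to 314.2 CPM in the other WT mice. Ttll4 had 281.0 CPM in WT replicate 4, against 244.4 to 248.7 CPM. For Ttll9 the second Rfx2-/- mouse had 74.7 CPM and the other 3 between 106.0 and 110.8 CPM. The cause was not tested for any of them.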

How the results depend on the processing

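Ttll3 and Ttll6 were called lower in all 14 alternative fits, Ttll10 in 10 and Ttll1 in 7, and no member changed direction in any of them. Leaving out each library in turn gave 2 to 4 members lower, 447 to 632 genes lower and 92 to 175 higher over all genes, and 1 to 2 genes of the tubulin lists lower. A test against a 2-fold change left 2 members, 272 genes lower and 29 higher, and 0 genes of the tubulin lists. With an adjusted p of 0.05 and no fold limit 1142 genes were lower and 544 higher, and 3 and 2 of the tubulin lists. DESeq2 called 211 genes higher and an unadjusted p of 0.01 gave 262, against 129. Removing the length trend gave 2 lower genes in the tubulin lists. Of the motif settings, up to 1 mismatch left 1 member window, and half-sites 1 or 3 bases apart, a setting chosen after seeing the data, gave 1 window each. The cause of these differences was not tested. No paired analysis was possible because the labels number no replicates and numbers were given in accession order. With 45 or more reads per member and library, depth did not limit detection of any member. The error includes the spread between libraries, 1 per mouse, in which mouse and library quality cannot be told apart.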

Other observations

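With 3 free bases between the half-sites of the X-box in place of 2, a spacing chosen after seeing the data, the promoter window of Ttll8 held GTTGCCCTGAGCAAC, with 1 mismatch, beginning 228 bases before the start. Windows with a match of this spacing and up to 1 mismatch made up 0.119% of the 32851 windows. With 1 free base, the window of Ttll10 held GTTGCCTGGAGAC, with 2 mismatches, beginning 13 bases before the start and ending next to the match described above, and 2.01% of windows held a match of that spacing with up to 2 mismatches.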
